A study of Mus musculus with 6 samples.

Results

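The genes described here are 10 that write, copy, remove or protect DNA methylation: Dnmt1, Dnmt3a, Dnmt3b, Dnmt3l, Uhrf1, Tet1, Tet2, Tet3, Zfp57 and Trim28. They were taken by gene symbol from the 30631 genes listed in each of 6 deposited expression tables, and all 10 were found once in every table. The cells were grown from mouse embryonic stem cells by a hanging drop method, sorted for the surface protein CD166 at stage 7+1 days and called sinoatrial node-like cardiomyocytes by the labels. 3 RNA sequencing libraries are labelled Shox2-/- and 3 are labelled wild type, which the protocol text calls Shox2+/+. Shox2 is a homeodomain transcription factor of pacemaker development, and the comparison asks how its loss alters the transcriptome. The stem cell clones of both groups were kept on mouse embryonic fibroblasts before differentiation. The titles of the 3 Shox2-/- libraries share 1 prefix, whereas those of the 3 wild type libraries carry 3. Whether a prefix names a stem cell clone is not stated in the sources used here. The effect of the genotype and that of the stem cell clone cannot be told apart.

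Methyl groups on cytosines in CpG dinucleotides are set anew by the methyltransferases DNMT3A and DNMT3B, with DNMT3L as a cofactor that has no catalytic activity of its own. After replication, UHRF1 binds the half-methylated CpG sites and recruits DNMT1, which restores the methyl mark on the new strand. The TET enzymes oxidise methylcytosine, a first step toward its removal. ZFP57, a zinc finger protein with a KRAB domain, recognises a methylated motif in imprinting control regions and brings in the corepressor TRIM28, and imprints are lost in mice without either protein. Dnmt3b, Dnmt3l, Tet1 and Zfp57 are known for high expression in pluripotent cells, and Dnmt1 and Uhrf1 for expression that follows DNA replication.

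The deposited values are read counts per gene, each divided by the size factor of its library, called normalized counts hereafter, and stood for 13504683 to 34650564 reads per library. Shox2 was at 201, 548 and 373 normalized counts in the libraries labelled Shox2-/-, against 89.6, 83.4 and 31.4 in those labelled wild type. The targeted gene is thus higher under the knockout label, the design of the allele is not given in the sources used here, and each direction below is one between labels. Library 1 labelled Shox2-/- and library 3 labelled wild type had the lowest and the highest score on the first principal component. Libraries 1 and 2 labelled wild type were close to each other, with differences of 0.012 to 0.13 on the log2 scale over the 10 genes. Separate cultures are not stated for the libraries of a group, and the spread that the p-values rest on may therefore be technical. The 15 cardiomyocyte markers were all detected but summed to 21246 to 47901 normalized counts in libraries labelled Shox2-/- and 18228 to 40104 in those labelled wild type, a wide range within each label. Alcam, which encodes the sorted protein CD166, was at 4176, 5312 and 4304 in libraries labelled Shox2-/- and 6591, 6526 and 5841 in those labelled wild type. Troponin T gene Tnnt2 was at 1332, 1475 and 2902 in libraries labelled Shox2-/- and 2089.6, 2155 and 1711 in those labelled wild type. In these bulk samples, fewer cells of a type and less RNA per cell cannot be told apart.

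None of the 10 genes passed the test between the labels. With limma on log2(value + 1) and Benjamini-Hochberg adjustment over the 17034 genes tested, 0 of 10 had an adjusted p under 0.05, as did 0 of all tested genes (0%). The lowest adjusted p among the 10 was that of Uhrf1, 0.287. At an unadjusted p under 0.05 there were 2, Uhrf1 and Dnmt1, both higher in the libraries labelled Shox2-/-; the share over all tested genes was 14.2%, with 6.92% higher and 7.23% lower. The count was 1 without library 1 labelled Shox2-/- (8.77% of all tested genes), 2 when library 1 labelled wild type was left out (9.32%), and 3 when library 2 of that label was left out (9.31%) or averaged with library 1 (9.16%). The values of the 2 labels did not overlap for 4 of the 10 genes, against 23.6% of all tested genes. Uhrf1 and Dnmt1 were higher in all 3 libraries labelled Shox2-/- (12.8% of all tested genes), and Dnmt3l and Tet2 were lower in all 3 (10.8%). The median log2 fold change of the 10 genes was 0.08, beside 0.01 for all tested genes. Limma voom with sample quality weights called 306 genes, or 1.8% of those tested, and 0 of the 10. That fit gave weights of 3.58 and 4.20 to libraries 1 and 2 labelled wild type and of 0.20 to 0.91 to the others. Without the weights voom called 0 genes.

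**Figure D1:**
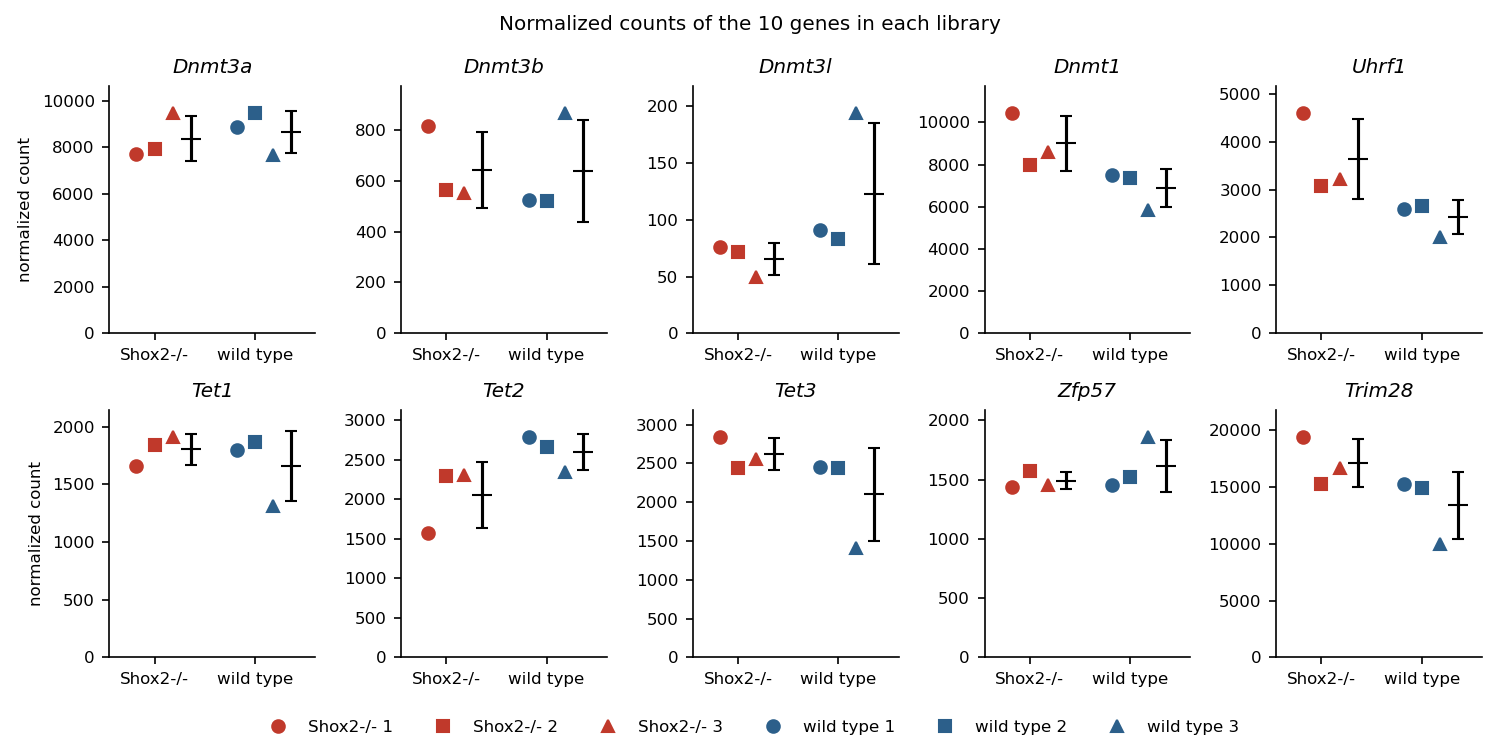
Normalized counts (vertical axes, each from 0) of the 10 genes in the 3 libraries labelled Shox2-/- (red) and the 3 labelled wild type (blue), with the mean and SD of each label in black. All 3 red points lie above all blue points for Dnmt1 and Uhrf1 and below them for Dnmt3l and Tet2.

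Of the maintenance pair, Uhrf1 had the larger difference. Uhrf1 (ENSMUSG00000001228; mm10 chromosome 17, 56303321 to 56323486, plus strand) was at 4606, 3083 and 3223 normalized counts in libraries 1, 2 and 3 labelled Shox2-/-, against 2599, 2657 and 2011 in libraries 1, 2 and 3 labelled wild type. The lowest value under the Shox2-/- label exceeded the highest under the wild type label. Uhrf1 averaged 3637 ± 842 in libraries labelled Shox2-/- and 2422 ± 358 in those labelled wild type (SD, n = 3 each). This gave a log2 fold change of 0.57 (SE 0.19, 95% interval 0.14 to 1.01; limma adjusted p = 0.287). Its log2 fold change was between 0.26 and 0.68 in the 18 alternative settings tried, with an unadjusted p under 0.05 in 18 of 18 and an adjusted p of 0.122 to 0.56.

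Dnmt1 (ENSMUSG00000004099; chromosome 9, 20907209 to 20959888, minus strand) had a smaller difference, also without overlap of the labels. It was at 10467, 7992 and 8578 normalized counts in libraries labelled Shox2-/- and at 7489, 7373 and 5870.05 in those labelled wild type. Library 1 labelled Shox2-/- was the highest and library 3 labelled wild type the lowest for both genes. Its log2 fold change was 0.38 (SE 0.15, 95% interval 0.04 to 0.73; limma adjusted p = 0.321). Without library 3 labelled wild type it was 0.27, without library 1 labelled Shox2-/- also 0.27, and without both 0.16, none of them at an unadjusted p under 0.05.

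Genes of DNA replication were higher in the same libraries. All 31 tested members of a list of replication and proliferation markers had a higher mean log2 value in the libraries labelled Shox2-/-. An unadjusted p under 0.05 was reached by 15 (48.4%, beside 14.2% of all tested genes) and an adjusted p under 0.05 by 0. With library 1 labelled Shox2-/- left out, 27 were higher, 8 of them at an unadjusted p under 0.05 (8.77% of all tested genes). The list summed to 134322 to 150976 normalized counts in libraries labelled Shox2-/- and 114549 to 118481 in those labelled wild type. The replication licensing factor gene Cdc6 was at 2092, 2077 and 1515 in libraries labelled Shox2-/- and 1286, 1132 and 887 in those labelled wild type (log2 fold change 0.78, adjusted p = 0.226). The kinase gene Bub1 of the spindle checkpoint had a log2 fold change of 0.40, the replication helicase gene Cdc45 one of 0.44 and the mitotic kinase gene Cdk1 one of 0.36.

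Set against the sum of that list, the labels overlapped for Dnmt1 and Uhrf1. Dnmt1 came to 6.93%, 5.88% and 6.39% of the summed replication list in libraries labelled Shox2-/- and to 6.50%, 6.44% and 4.95% in those labelled wild type. Uhrf1 came to 3.05%, 2.27% and 2.40% of it in libraries labelled Shox2-/- and to 2.26%, 2.32% and 1.70% in those labelled wild type. The part of proliferation in the difference of either gene was not tested beyond these ratios. Uhrf1 was also higher relative to Dnmt1, with a ratio per kilobase of exon of 0.762, 0.668 and 0.651 in libraries labelled Shox2-/- and 0.601, 0.624 and 0.593 in those labelled wild type. The exact two-sided permutation test gave p = 0.10 for this ratio, which is the smallest p that 3 against 3 libraries allow, and 0.20 after adjustment over the 16 ratios, shares and sums compared.

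Of the 10 genes, Uhrf1, Dnmt1 and Trim28 have promoter windows that hold E2F-type motifs. The RefSeq windows of GRCm38.p6, from 250 bases before to 50 after each annotated start, number 19 for the 10 genes. They were searched on both strands for GGCGGGAA, TTTGGCGC and TTTCGCGC. No letters were allowed to differ, and no position can match more than one of them. Each match is given on the gene's strand with its flanks, the match in capitals.
Uhrf1, chr17:56304120-56304143 (+): gagtcgggTTTCGCGCgcccaggc
Uhrf1, chr17:56303281-56303304 (+): tttctcgcTTCCCGCCacagcgcc
Dnmt1, chr9:20952827-20952850 (-): ttccgcgcGCGCGAAAaagccggg
Dnmt1, chr9:20952575-20952598 (-): gggcagcgTTTGGCGCgggctgtg
Trim28, chr7:13023965-13023988 (+): ccacgttcGGCGGGAActtcctgg

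These matches lie in 4 of the 19 windows (21.1%), against 2.96% of the 32851 windows of all genes and 7.07% of those with at least 20 CpG dinucleotides. The Dnmt1 matches lie in annotated exons, and those of Uhrf1 and Trim28 do not. The other 7 genes have no E2F-type motif in their windows. Motifs of ZFP57, SP1 type and E-box type were also searched for, and lie in 11.6%, 35.7% and 7.15% of all windows. The ZFP57 motif is in the windows of the outer Dnmt3a starts, of Tet3 and of Trim28. The SP1-type motif is in windows of every gene of the set except Zfp57, and the E-box in windows of Dnmt3a and Dnmt3l. A match is a description of the sequence and shows no binding, and its relation to the values was not tested. The stretch upstream of the inner Uhrf1 start holds 30 CpG dinucleotides in 250 bases. It is printed as an example of the CpG-rich promoters in this set, with its E2F-type match in capitals.
Uhrf1, chr17:56304063-56304312 (+): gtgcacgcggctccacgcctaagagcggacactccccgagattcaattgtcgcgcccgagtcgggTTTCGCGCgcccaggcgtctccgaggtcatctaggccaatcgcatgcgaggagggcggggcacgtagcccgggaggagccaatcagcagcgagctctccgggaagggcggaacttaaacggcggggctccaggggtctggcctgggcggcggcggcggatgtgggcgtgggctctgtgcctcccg

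CpG content differed widely over the 10 genes. The Tet2 window held 57 CpG dinucleotides, more than 99.8% of all windows, and the windows of the outer Dnmt3a starts held 46 and 47. The 3 Dnmt3l windows held 3 to 6 and the 3 Zfp57 windows 4 to 9, around the median of 7 over all windows.

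Of the de novo methyltransferase genes, neither enzyme gene differed by more than the spread within a label. Dnmt3a (ENSMUSG00000020661; chromosome 12, 3806007 to 3914443, plus strand) was at 7701, 7933 and 9502 normalized counts in libraries labelled Shox2-/- and at 8861, 9465 and 7684 in those labelled wild type. Its log2 fold change was -0.05 (SE 0.13, 95% interval -0.35 to 0.25), and its sign changed in 3 of the 18 alternatives. Dnmt3b (ENSMUSG00000027478; chromosome 2, 153649450 to 153687730, plus strand) was at 815, 564 and 550.3 in libraries labelled Shox2-/- and at 523, 518 and 868 in those labelled wild type. One library of each label stood apart upward, library 1 labelled Shox2-/- and library 3 labelled wild type, while the other 4 lay within 518 to 564. The log2 fold change was 0.04 (SE 0.25), with a sign that changed in 8 of the 18 alternatives, scaling by library totals and by upper quartiles among them. The near copy listed as Dnmt3c-ps had 0 to 3.46 normalized counts, few beside those of Dnmt3b.

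Dnmt3l, the gene of the inactive cofactor, was the lowest of the 10 and the most variable. Dnmt3l (ENSMUSG00000000730; chromosome 10, 78041947 to 78063622, plus strand) was at 76.1, 71.5 and 49.6 normalized counts in libraries labelled Shox2-/- and at 91.3, 83.4 and 195 in those labelled wild type, on 44 to 248 reads. Every value under the Shox2-/- label was below every value under the wild type label, but the gap between 76.1 and 83.4 was small beside the distance of library 3 labelled wild type from its group. Dnmt3l averaged 65.8 ± 14.2 in libraries labelled Shox2-/- and 123 ± 62.1 in those labelled wild type (SD, n = 3 each). The log2 fold change was -0.81 (SE 0.37, 95% interval -1.67 to 0.05; limma adjusted p = 0.367). Without library 3 labelled wild type it was -0.43 (adjusted p = 0.444). With Diff9 in the title as a replicate block it was -1.09 (limma adjusted p = 0.242), with an unadjusted p under 0.05.

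Markers of other cell types also differed between the libraries, in both directions. Of the 15 mesenchyme and fibroblast markers, 9 were highest and 2 lowest in library 3 labelled wild type, and of the 22 pluripotency markers 11 were highest and 3 lowest there. The summed mesenchyme list ranged over 263433 to 378873 normalized counts under the Shox2-/- label and over 489460 to 696130 under the wild type label. Of its 14 tested members 11 were lower, and 5 of these and 1 higher one had an unadjusted p under 0.05 (42.9%; 14.2% of all tested genes). The summed pluripotency list ranged over 6543 to 10315 under the Shox2-/- label and over 5277 to 5676 under the wild type label. Yet 15 of its 22 members were lower under the Shox2-/- label. An unadjusted p under 0.05 was reached by 4 higher and 5 lower members (40.9%, beside 14.2% of all tested genes). Lin28a, an RNA-binding protein of stem cells and the member with the lowest p, was at 4875, 4145 and 2629 in libraries labelled Shox2-/- and at 1547, 1567 and 1433 in those labelled wild type. It was the highest member of the list in every library and weighs most in the sums, which therefore do not show the direction of the list. No marker of these lists was at 0 in all libraries. All 9 tested epithelial markers had a lower mean log2 value under the Shox2-/- label. Among these, 5 had an unadjusted p under 0.05 (55.6%, beside 14.2% of all tested genes). Without library 1 labelled Shox2-/-, which held the lowest value of 7 of the 9, 7 were lower and 2 higher. In that setting 4 of the lower ones had an unadjusted p under 0.05, beside 8.77% of all tested genes. Of the 8 erythroid markers 4 were higher and 4 lower, 0 of them at an unadjusted p under 0.05. Among them, the embryonic globin gene Hbb-bh1 was at 1524, 9696 and 1231 in libraries labelled Shox2-/- and at 7441, 7150 and 60.5 in those labelled wild type. Of the 12 tested endoderm markers 9 were lower and 3 higher. An unadjusted p under 0.05 was reached by 2 lower ones and 1 higher one (25%, beside 14.2% of all tested genes). Afp, a gene of the visceral endoderm and fetal liver, was at 70.9, 728 and 582 in libraries labelled Shox2-/- and at 1490.4, 1429 and 7020.2 in those labelled wild type. Amn, the endoderm marker with the lowest p, went the other way, at low counts (log2 fold change 1.30). It was at 10.4, 15.2 and 14.8 in libraries labelled Shox2-/- and at 6.64, 5.21 and 3.14 in those labelled wild type. The part of these cells in the Dnmt3l level was not tested. Dnmt3l shares 67 exonic bases with Aire on the opposite strand, and Aire was at 11.0 in library 3 labelled wild type, the lowest value of the 6. The copy listed as Dnmt3l-ps1 was likewise lowest there, at 7.07.

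No TET gene passed the test, and neither did the share of any of them in their sum. Tet2 (ENSMUSG00000040943; chromosome 3, 133463679 to 133545139, minus strand) was at 1578, 2289 and 2308 normalized counts in libraries labelled Shox2-/- and at 2793, 2659.8 and 2339 in those labelled wild type. The groups did not overlap, yet the nearest values, 2308 and 2339, lay close together. The log2 fold change was -0.35 (SE 0.17, 95% interval -0.75 to 0.04; limma adjusted p = 0.386), and without library 1 labelled Shox2-/- it was -0.17 (adjusted p = 0.68).

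The mean of Tet3 was on the other side. Tet3 (ENSMUSG00000034832; chromosome 6, 83362373 to 83459084, minus strand) was at 2848, 2445 and 2564 normalized counts in libraries labelled Shox2-/- and at 2458, 2438 and 1414 in those labelled wild type. Only library 3 labelled wild type stood clearly below the others. The log2 fold change was 0.36 (SE 0.22; limma adjusted p = 0.478), and without library 3 labelled wild type it was 0.09. Tet1 (ENSMUSG00000047146; chromosome 10, 62804570 to 62908996, minus strand) was at 1657, 1839 and 1915 in libraries labelled Shox2-/- and at 1802, 1868 and 1312 in those labelled wild type. These ranges overlapped, with a log2 fold change of 0.13 (SE 0.15) that turned negative without library 3 labelled wild type (-0.03) and with voom quality weights (-0.02).

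Per kilobase of exon, Tet2 made up 25.2%, 33.8% and 33.0% of the summed TET genes in libraries labelled Shox2-/- and 38.6%, 37.1% and 45.0% in those labelled wild type. The share of Tet3 was 45.9%, 36.5% and 37.1% under the Shox2-/- label and 34.3%, 34.4% and 27.5% under the wild type label. That of Tet1 was 28.9% to 29.9% under the Shox2-/- label and 27.2% to 28.5% under the wild type label. All 3 shares were free of overlap between the labels, at the smallest exact permutation p of 0.10 (0.20 adjusted over 16). The ratio of Tet2 to Tet3 averaged 0.788 ± 0.209 in libraries labelled Shox2-/- and 1.28 ± 0.31 in those labelled wild type (SD, n = 3 each). The sum of the TET genes overlapped, at 396 ± 22.0 normalized counts per kilobase in libraries labelled Shox2-/- and 387 ± 68.6 in those labelled wild type (SD, n = 3 each). These shares need no scaling between libraries, and the shares within a library are bound to each other, since a lower one raises the others.

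**Figure D2:**
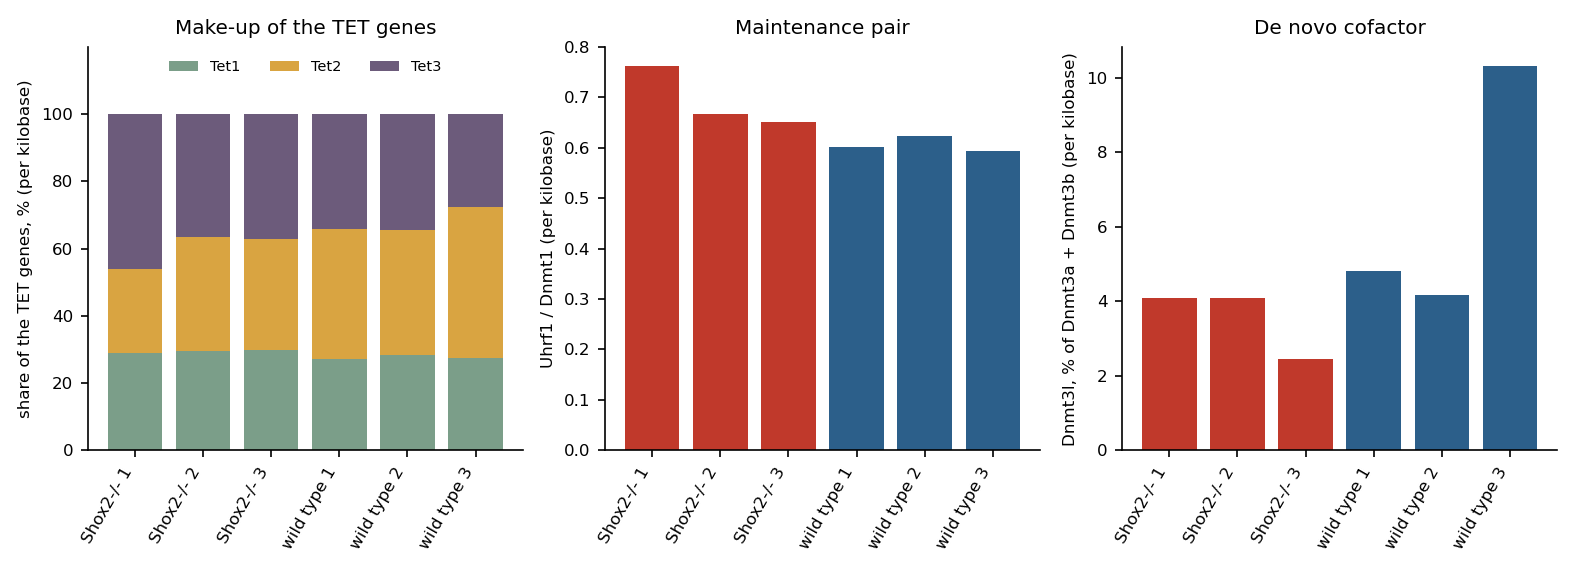
Left, share of Tet1, Tet2 and Tet3 in their sum (percent, per kilobase of exon) in each library; middle, ratio of Uhrf1 to Dnmt1; right, Dnmt3l as a percent of Dnmt3a plus Dnmt3b, both with libraries labelled Shox2-/- in red and wild type in blue. The Tet2 share is 25.2% to 33.8% under the Shox2-/- label and 37.1% to 45.0% under the wild type label, and library 3 labelled wild type stands out at 10.3% in the right panel.

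The imprint protectors Trim28 and Zfp57 had mean differences of opposite sign, neither past the test. Trim28 (ENSMUSG00000005566; chromosome 7, 12999114 to 13031035, plus strand) was at 19424, 15230.5 and 16689.9 normalized counts in libraries labelled Shox2-/- and at 15278, 14874 and 10005 in those labelled wild type. The labels overlapped by a narrow margin, since library 1 labelled wild type exceeded library 2 labelled Shox2-/-. The log2 fold change was 0.37 (SE 0.19, 95% interval -0.07 to 0.81; limma adjusted p = 0.405), and it was 0.18 without library 3 labelled wild type and 0.08 without that library and library 1 labelled Shox2-/-. Zfp57 (ENSMUSG00000036036; chromosome 17, 37001163 to 37010635, plus strand) had the narrowest spread under the Shox2-/- label, with 1439, 1571 and 1457 in those libraries and 1456, 1521 and 1863 in those labelled wild type. Its log2 fold change was -0.11 (SE 0.12, 95% interval -0.39 to 0.18; limma adjusted p = 0.714), and without library 3 labelled wild type it was 0.00038. Per kilobase, Zfp57 came to 8.14%, 11.3% and 9.59% of Trim28 in libraries labelled Shox2-/- and 10.46%, 11.2% and 20.5% in those labelled wild type (exact permutation p = 0.30).

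**Figure D3:**
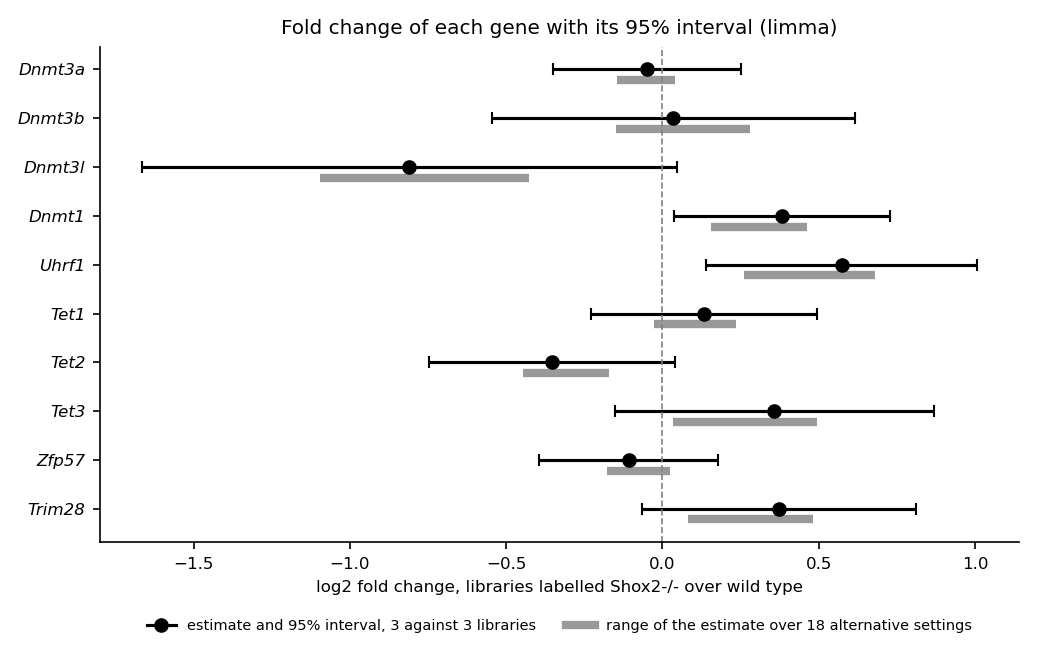
Log2 fold change of each gene, libraries labelled Shox2-/- over wild type, with its 95% interval from limma (black, 3 libraries each) and the range of the estimate over 18 alternative settings (grey). Only the intervals of Uhrf1 (0.14 to 1.01) and Dnmt1 (0.04 to 0.73) leave out 0, before adjustment.

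To compare levels between genes, values were divided by the length of all annotated exons of each gene. Which transcripts were expressed was not assessed, so the order given here depends on that length. Before division, Dnmt3a averaged 8379 and 8670 normalized counts under the Shox2-/- and wild type labels, Dnmt1 9012 and 6911, and Uhrf1 3637 and 2422. Trim28 was the highest, at 4116 ± 512 normalized counts per kilobase in libraries labelled Shox2-/- and 3219 ± 706 in those labelled wild type (SD, n = 3 each), above 98.8% of tested genes. Dnmt1 averaged 1222 ± 175 in libraries labelled Shox2-/- and 937 ± 122 in those labelled wild type. Uhrf1 averaged 854 ± 198 under the Shox2-/- label and 569 ± 84.0 under the wild type label. Dnmt3a averaged 503 ± 58.9 in libraries labelled Shox2-/- and 521 ± 54.4 in those labelled wild type, and Zfp57 averaged 393 ± 18.9 and 426 ± 57.8 under the Shox2-/- and wild type labels. These are the genes of maintenance, of the main de novo enzyme and of imprint protection; the lowest of them, Zfp57, lies above 80.7% of tested genes. Tet2, Tet3, Dnmt3b and Tet1 had means of 117 to 157 in libraries labelled Shox2-/- and of 107 to 154 in those labelled wild type. Dnmt3l was the lowest, at 22.0 ± 4.74 in libraries labelled Shox2-/- and 41.2 ± 20.8 in those labelled wild type, above only 27.1% of tested genes.

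Trim28, Dnmt1 and Uhrf1 kept this order in 6 of 6 libraries, and Dnmt3a exceeded Zfp57 in 5 of 6. Tet2, Tet3, Dnmt3b and Tet1 could not be ranked, as neighbours among them changed places between libraries: Tet2 exceeded Tet3 in 3 of 6 libraries and Dnmt3b exceeded Tet1 in 2 of 6. Dnmt3b made up 25.6%, 18.8% and 15.9% of Dnmt3a plus Dnmt3b in libraries labelled Shox2-/- and 16.1%, 15.1% and 26.9% in those labelled wild type, with no separation of the labels (exact permutation p = 0.90). Zfp57 exceeded Tet2 in 6 of 6 libraries without overlap of their ranges.

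**Figure D4:**
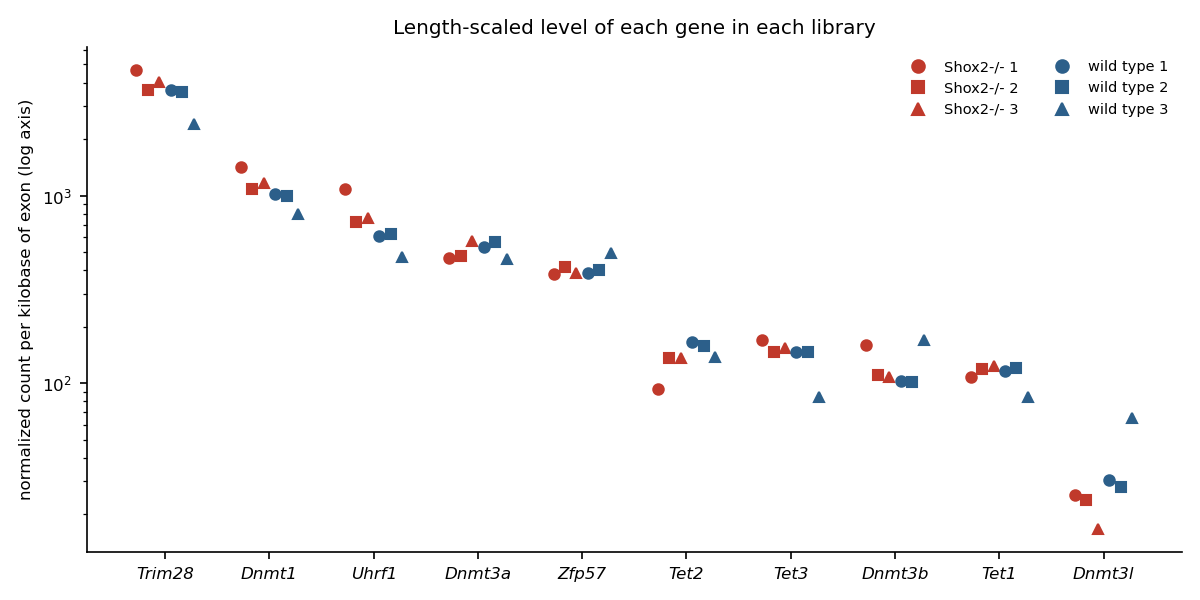
Normalized counts per kilobase of exon (log axis) of the 10 genes in each library, ordered by the mean of the libraries labelled wild type. Trim28 lies above and Dnmt3l below all the others, while Tet2, Tet3, Dnmt3b and Tet1 interleave between 84.7 and 171.

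Single libraries stood out in much of this variation. Library 3 labelled wild type held the lowest value of 6 of the 10 genes and the highest of 3, against 26.6% and 25.5% of all tested genes. Library 1 labelled Shox2-/- held the highest of 4 and the lowest of 2, against 24.97% and 23.0% of all tested genes. Relative to the mean of libraries 1 and 2 labelled wild type, library 3 of that label was lower by 0.79 (log2) in Tet3, 0.59 in Trim28, 0.48 in Tet1, 0.39 in Uhrf1 and 0.34 in Dnmt1, and higher by 1.15 in Dnmt3l, 0.74 in Dnmt3b and 0.32 in Zfp57. The range over the 6 libraries was 1.95 on the log2 scale for Dnmt3l, 1.20 for Uhrf1, 1.01 for Tet3 and 0.96 for Trim28, and only 0.31 for Dnmt3a, beside a median of 0.71 for tested genes.

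The titles carry the number 9 in library 3 labelled Shox2-/- and in libraries 1 and 2 labelled wild type, with a meaning that is not stated. Within these, the differences were 0.29 (log2) for Uhrf1, 0.21 for Dnmt1, -0.80 for Dnmt3l and -0.24 for Tet2. Between the other libraries, 2 labelled Shox2-/- and 1 labelled wild type, they were 0.91, 0.64, -1.39 and -0.30 for the same genes. Of the 10 genes, 9 had the sign of the full comparison in the first set and 8 in the second. Both sets are parts of that comparison, so some agreement in sign is built in.

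The partners of the maintenance pair had positive differences when all libraries were used. All 12 members of a list of UHRF1 and DNMT1 partners were higher in the libraries labelled Shox2-/-, with a median log2 fold change of 0.23, and 4 had an unadjusted p under 0.05 (33.3%; 14.2% of all tested genes). Usp7, the deubiquitinase that binds both proteins, was at 6978, 6832 and 6665 in libraries labelled Shox2-/- and at 5653, 5794 and 5697 in those labelled wild type (log2 fold change 0.26; limma adjusted p = 0.287). Kdm1a, a histone demethylase, had a log2 fold change of 0.40, Cdca7, a partner of the chromatin remodeller HELLS, one of 0.42, and the clamp gene Pcna, also a replication marker, one of 0.30. Without library 1 labelled Shox2-/- 2 of the 12 had an unadjusted p under 0.05 (8.77% of all tested genes). The number higher was 12 without that library, 11 without library 3 labelled wild type and 10 without both. With Diff9 in the title as a replicate block it was 11.

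TRIM28 works with heterochromatin proteins and histone methyltransferases, and 11 of 13 of these partners were higher, 4 of them at an unadjusted p under 0.05 (30.8%; 14.2% of all tested genes), with a median log2 fold change of 0.20. Cbx5, which encodes heterochromatin protein HP1 alpha, was at 32720 (library 1), 31143 and 27526 normalized counts in libraries labelled Shox2-/- and at 24172, 25383 and 23083 in those labelled wild type (log2 fold change 0.33; limma adjusted p = 0.301). Without library 1 labelled Shox2-/-, 0 of the 13 had an unadjusted p under 0.05 (8.77% of all tested genes). The remodeller gene Smarcad1 had a log2 fold change of 0.27, the TRIM28 relative Trim33 one of 0.23, and Resf1, a regulator of retroelement silencing, one of 0.22.

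**Figure D5:**
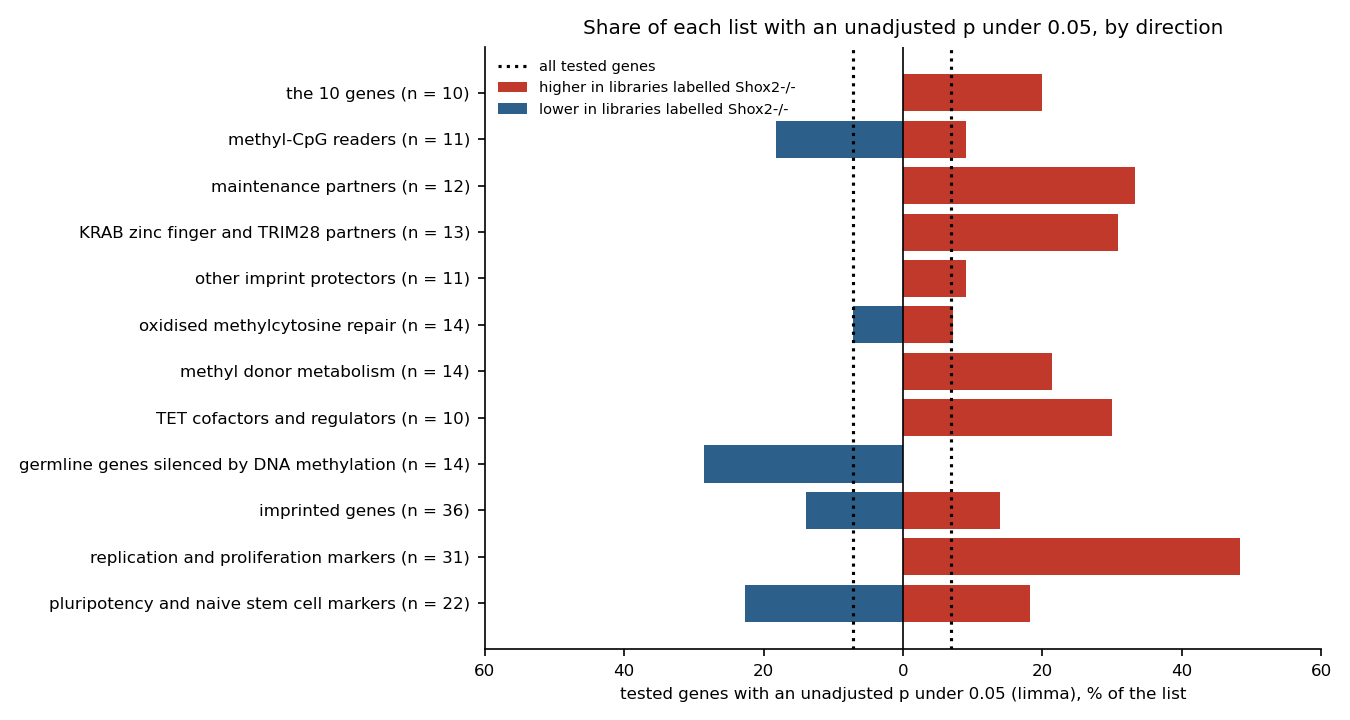
Percent of the tested members of the 10 genes, of the methylation pathway and target lists and of the replication and pluripotency markers with an unadjusted p under 0.05 that were higher (red) or lower (blue) in libraries labelled Shox2-/- than in those labelled wild type, with dotted lines for all tested genes (6.92% higher, 7.23% lower). Of the lists drawn, the replication markers have the highest share, 48.4%; the other marker lists of cell types are left out, among them the epithelial markers at 55.6%.

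Enzymes that supply methyl groups through folate were among the higher genes. In the methyl donor list, 11 of 14 tested members were higher in libraries labelled Shox2-/-, 3 of them at an unadjusted p under 0.05 (21.4%, beside 14.2% of all tested genes). Without library 1 labelled Shox2-/-, 8 were higher and 6 lower, with a median log2 fold change of 0.035. In that setting 3 had an unadjusted p under 0.05, beside 8.77% of all tested genes. Shmt1, the cytosolic serine hydroxymethyltransferase, had a log2 fold change of 0.54 and the thymidylate synthase gene Tyms one of 0.33. Shmt1 was at 2176, 1895 and 1583 in libraries labelled Shox2-/- and at 1339, 1257 and 1254 in those labelled wild type, without overlap (limma adjusted p = 0.227). Tyms serves nucleotide synthesis as well and is also in the replication list.

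Among TET cofactors and regulators, 9 of 10 were higher and 3 had an unadjusted p under 0.05 (30%; 14.2% of all tested genes). Without library 1 labelled Shox2-/- these counts were 7 and 2, the latter beside 8.77% of all tested genes. Rybp, a Polycomb protein, had a log2 fold change of 0.55, the GlcNAc transferase gene Ogt, whose protein binds TET enzymes, one of 0.26, and the isocitrate dehydrogenase gene Idh2 one of 0.29. Ogt was at 9398, 9593 and 9687 in libraries labelled Shox2-/- and at 8412, 8322 and 7260.4 in those labelled wild type, without overlap. In the repair of oxidised methylcytosine, 6 of 14 were higher and 8 lower. Of these, Apobec2 (0.71), a deaminase relative of muscle, and the glycosylase gene Neil3 (-0.36) had an unadjusted p under 0.05. Their share of the list was 14.3%, beside 14.2% of all tested genes.

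Of the methyl-CpG readers, 8 of 11 were higher. Of the 3 with an unadjusted p under 0.05 (27.3%, beside 14.2% of all tested genes), 2 were lower. Zbtb4, a zinc finger protein that binds methylated DNA, was at 462, 536 and 584 in libraries labelled Shox2-/- and at 915, 956 and 699.5 in those labelled wild type (log2 fold change -0.69; limma adjusted p = 0.226). Mbd1 had a log2 fold change of -0.32, and the UHRF1 relative Uhrf2 one of 0.24. Of the other imprint protectors, 3 of 11 tested were higher and 8 lower. Only 1 had an unadjusted p under 0.05 (9.09%, beside 14.2% of all tested genes), the histone chaperone gene Daxx (log2 fold change 0.30). Dppa3, which shields methylation from TET3 in the zygote, was at 8.65, 19.7 and 10.4 in libraries labelled Shox2-/- and at 18.3, 18.9 and 24.3 in those labelled wild type, with overlap.

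Germline genes known to be silenced by DNA methylation in somatic cells were mostly at low counts, with 14 of 29 passing the filter. The highest were Zcwpw1, at 259 to 311 normalized counts over the 6 libraries, and Stag3, at 156 to 261. Of the 14 tested, 11 were lower in libraries labelled Shox2-/-, with a median log2 fold change of -0.39, and these 11 held the 4 with an unadjusted p under 0.05 (28.6%; 14.2% of all tested genes, 7.23% lower). The list summed to 848 to 987 normalized counts in libraries labelled Shox2-/- and to 1042 to 1192 in those labelled wild type. Ddx4, an RNA helicase of germ cells, was at 15.6, 28.6 and 21.5 in libraries labelled Shox2-/- and at 36.5, 42.4 and 58.9 in those labelled wild type (log2 fold change -1.05; limma adjusted p = 0.285). The piRNA pathway gene Piwil2 had a log2 fold change of -0.85 and the meiotic cohesin gene Smc1b one of -0.68. Stk31 (-2.04) was at 6.92, 0.89 and 10.37 in libraries labelled Shox2-/- and at 14.9, 23.5 and 29.05 in those labelled wild type. The value of 0.89 stands for 1 read. Stk31 passed the filter only through the libraries labelled wild type, where it is high, so its place among the 4 is no evidence of a difference. Without library 3 labelled wild type 2 of 13 had an unadjusted p under 0.05 (16% of all tested genes), and without that library and library 1 labelled Shox2-/- 1 of 11 (15.4%). Methylation itself was not measured in these libraries.

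Imprinted genes, whose allelic marks ZFP57 and TRIM28 protect, were split evenly, with 18 of 36 tested higher and 18 lower. An unadjusted p under 0.05 was reached by 5 in each direction (27.8% of the list, beside 14.2% of all tested genes). The noncoding RNA gene H19 was at 7585, 17538 and 11391 in libraries labelled Shox2-/- and at 72039, 74346 and 105126 in those labelled wild type (log2 fold change -2.85; limma adjusted p = 0.0954). Mest had a log2 fold change of 0.89, Zrsr1 one of -0.79 and Nap1l5 one of -1.53.

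The genes most like the 4 widest-ranging ones were found by the root mean square difference of centred log2 values over the 6 libraries, among 17033 other tested genes. Closest to Dnmt3l was the germline gene Tex19.1 (0.0842), at 43.3, 36.7 and 24.4 normalized counts in libraries labelled Shox2-/- and 49.8, 40.4 and 109 in those labelled wild type, followed by Clec11a (0.095) and Cyp4v3 (0.139). Closest to Uhrf1 were Magi3 (0.0419), Gm5648 (0.0528) and Fscn1 (0.0613). Closest to Tet3 were Ppp1r16a (0.0465), Zfp703 (0.0478) and Mta1 (0.049), and to Trim28 Zc3h7b (0.0203), Tead2 (0.0262) and Phc2 (0.0334). Among the 10 genes themselves, Tet3 and Trim28 were the most alike pair (0.0774), followed by Dnmt1 and Trim28 (0.0863) and Dnmt1 and Uhrf1 (0.121).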

How the data were processed

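Each of the 6 deposited tables lists 30631 genes with 1 value per gene. The mm10 build, HTSeq, DESeq2 1.14.0, BWA and CASAVA 1.8.2 are named per the submitters' processing notes, with roles and settings not given in the sources used here. The deposited values are normalized counts: 100% of them were whole read counts, within 0.1, once multiplied by 1 size factor per library. The decimal commas were read as points. Genes with at least 10 in at least 3 libraries were tested with limma 3.58.1 in R 4.3.3, on log2(value + 1) with a mean-variance trend, two-sided, adjusted by Benjamini-Hochberg, without a replicate block. The script was tested on simulated data. Ratios were tested by exact permutation (scipy 1.17.1). Exon lengths came from GENCODE M21, which held 30497 of the gene IDs, and promoter windows from RefSeq GRCm38.p6.

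The members and lists were chosen with earlier results of these data known. Named were all 10 genes, up to 4 genes per other list by lowest p, and 3 likeness genes for each of the 4 widest-ranging genes; Tnnt2, Aire, Zcwpw1, Stag3 and the pseudogenes were added after their values were seen. Read counts limit the precision, most for Dnmt3l. Listed genes without values are not analysed here. One gene that the naming rule picks from the methyl donor list is not reported here.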

Additional observations from a re-analysis of the deposited data

How the results depend on the processing

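0 of the 10 genes were called in any of the 18 alternatives. Uhrf1, Dnmt1, Trim28 and Tet3 stayed higher and Dnmt3l and Tet2 lower in each of them. Over all genes, 2 were called with no filter on low values and 306 by limma voom with sample quality weights; leaving out 1 library gave 0 to 51, with 51 when library 2 labelled Shox2-/- was left out. The count of the 10 at an unadjusted p under 0.05 was 5 with Diff9 in the title as a replicate block (14.8% of all tested genes), and 1 to 3 with 1 library left out (8.77% to 16%). It was 1 without library 1 or 3 labelled Shox2-/- or library 3 labelled wild type. The signs that turned were small. Dnmt3a was at 0.039 with the replicate block and at -0.14 to 0.016 with 1 library left out. Dnmt3b was at -0.0033 by library totals, -0.025 by upper quartiles, -0.036 by voom without weights, -0.087 with libraries 1 and 2 labelled wild type averaged and -0.14 with the replicate block, and at -0.15 to 0.28 with 1 library left out. Tet1 was at -0.017 by voom with weights and at -0.027 to 0.23 with 1 library left out. Zfp57 was at 0.024 without library 3 labelled wild type and library 1 labelled Shox2-/-, and at -0.18 to 0.00038 with 1 library left out. The cause of these turns was not tested.

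Whether the title number pairs the libraries cannot be told from 3 libraries per label. Deviations of library 3 labelled Shox2-/- correlated at -0.03 and 0.08 with libraries 1 and 2 labelled wild type, and at -0.03 with library 3 of that label. Of the planned fits to the recovered reads, limma voom was run and the negative binomial models were not run. Voom without weights and leaving out both outlying libraries were chosen after seeing the data. At 44 to 248 reads, Dnmt3l has the least depth of the 10.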
